A study of Mus musculus with 35 samples.

Results

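The genes described here are 10 mouse genes whose proteins form or act with the exon junction complex (EJC) and the nonsense-mediated mRNA decay (NMD) pathway: Eif4a3, Magoh, Rbm8a, Casc3, Rnps1, Upf1, Upf2, Upf3b, Smg1 and Smg5. They were taken by name, and a cross-link event was given to a gene when it lay on the strand of that gene and inside its body in the GENCODE vM1 annotation of the mm9 genome. They are 10 of 37310 annotated genes, of which 18270 had at least 1 listed event. Together the 10 genes held 36080 of the 24445952 events listed in the 31 single libraries, or 0.148%.

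The EJC is laid onto RNA close to exon–exon junctions when introns are spliced out, and it travels with the mRNA into the cytoplasm. Its core is the RNA helicase EIF4A3, the MAGOH and RBM8A (Y14) pair that holds EIF4A3 on the RNA, and CASC3 (also Barentsz or MLN51), while RNPS1 is a peripheral factor with an RNA recognition motif. When a ribosome stops well upstream of an EJC, UPF3B and UPF2 link the complex to the helicase UPF1, the kinase SMG1 phosphorylates UPF1, and SMG5 binds phosphorylated UPF1 and helps to bring in decay enzymes. What was measured here is where other proteins cross-linked to the RNAs of these 10 genes, and not the proteins that the genes encode.

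iCLIP, in which UV light links a protein to RNA and the linked base is read from where the cDNA ends, was carried out with NXF1, the receptor that takes mRNA through nuclear pores, and with the splicing factors SRSF1 to SRSF7, the SR proteins, to ask which of them could guide NXF1 to mRNA. The tested lines were NXF1-GFP (3 libraries), SRSF1-GFP (4), SRSF2-GFP (5), SRSF3-GFP (3), SRSF4-GFP (3), SRSF5-GFP (4), SRSF6-GFP (3) and SRSF7-GFP (6). GFP fused to a nuclear localization signal (GFP-NLS) was the control (4 libraries, held in 1 pooled file that entered no test). All groups, control included, were P19 cells, a mouse embryonal carcinoma line with features of early embryo cells, irradiated with UV light and precipitated with the same anti-GFP antibody, with no gene deleted and no drug compared. The tagged genes came from bacterial artificial chromosomes in stable clonal lines, so a protein and the clone that carried it cannot be told apart. The year in the file headers, called the run year below, was 2013 for all SRSF2, SRSF5 and SRSF6 libraries. It was 2014 for all SRSF1, SRSF3, SRSF4 and NXF1 libraries, and only SRSF7 had both. Protein and run year therefore cannot be told apart either, and the later run year holds no SRSF2, SRSF5 or SRSF6 library. The study calls the replicates biological, and no source here says how their cultures were kept apart.

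A listed event is called a tag, and levels are given as CPM, the tags of a gene or site per 1000000 listed tags of the library. Library totals ran between 13038 and 4459523 listed tags, 25 of 31 libraries held at least 50000, and a value of 0 means that no position in the gene passed the threshold of the deposited lists. The summed level of the 10 genes followed the library total (Spearman's rho 0.82 over 31 libraries, given as a description), so small libraries listed few members whichever protein they were for. The headers of the files labelled SRSF2 replicates 2 and 5 name SRSF1, and these libraries held 2605 and 2311 CPM in Srsf5, against 31.1 to 306 CPM in the other SRSF2 libraries. They held 2296 and 2348 CPM in Srsf1, against 0 to 1196 CPM in the other SRSF2 libraries and 134 to 3540 CPM in the SRSF1 libraries. In Srsf2 they held 1165 and 1052 CPM, within the 337 to 1998 CPM of the other SRSF2 libraries and above the 0 to 495 CPM of the SRSF1 libraries. With both left out, the number of members called stayed the same in all comparisons but 1, which is given with that comparison. They listed 3077 and 4152 member tags, and the other SRSF2 libraries 3, 25 and 102. The SRSF2 comparison without them therefore had few member tags to call from. SRSF2 tags summed over its libraries, and the shares made from them, rest mostly on these doubted libraries. All 10 pluripotency markers checked had tags (summed level over the 31 libraries 0 to 3200 CPM, median 1030), while the 5 neural markers summed to at most 43.2 CPM, the 5 mesoderm markers to at most 31.6 CPM and the 5 endoderm markers to at most 11.1 CPM. The pluripotency markers were uneven, with 20700 tags for Dnmt3b, 6976 for Lin28a, 202 for Nanog and 9 for Zfp42. Neural Map2 (267 tags) and Tubb3 (178) and mesoderm T (180) were near Nanog and above Zfp42. The GFP-NLS control listed 21880 tags in all, and 2 of them lay in a member, Smg5.

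Per kilobase of exon, the highest mean level over the 31 libraries was 29.9 CPM for Casc3, followed by 27.9 for Rbm8a, 19.2 for Eif4a3, 17.6 for Smg5 and 17.3 for Upf1. Magoh (15.2 CPM per kilobase), Rnps1 (14.3), Smg1 (11.5), Upf2 (8.004) and Upf3b (7.07) were lower. The SD between libraries was 25.7 for Casc3 and 9.63 for Upf3b, so this order describes means with a spread about as large as the means themselves. In tags, Smg1, the longest of the coding sequences, held 9677, Casc3 6428, Smg5 4874, Upf1 4498, Rbm8a 2885, Upf2 2162, Eif4a3 2062, Upf3b 1723, Rnps1 1253 and Magoh 518.

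**Figure D1:**
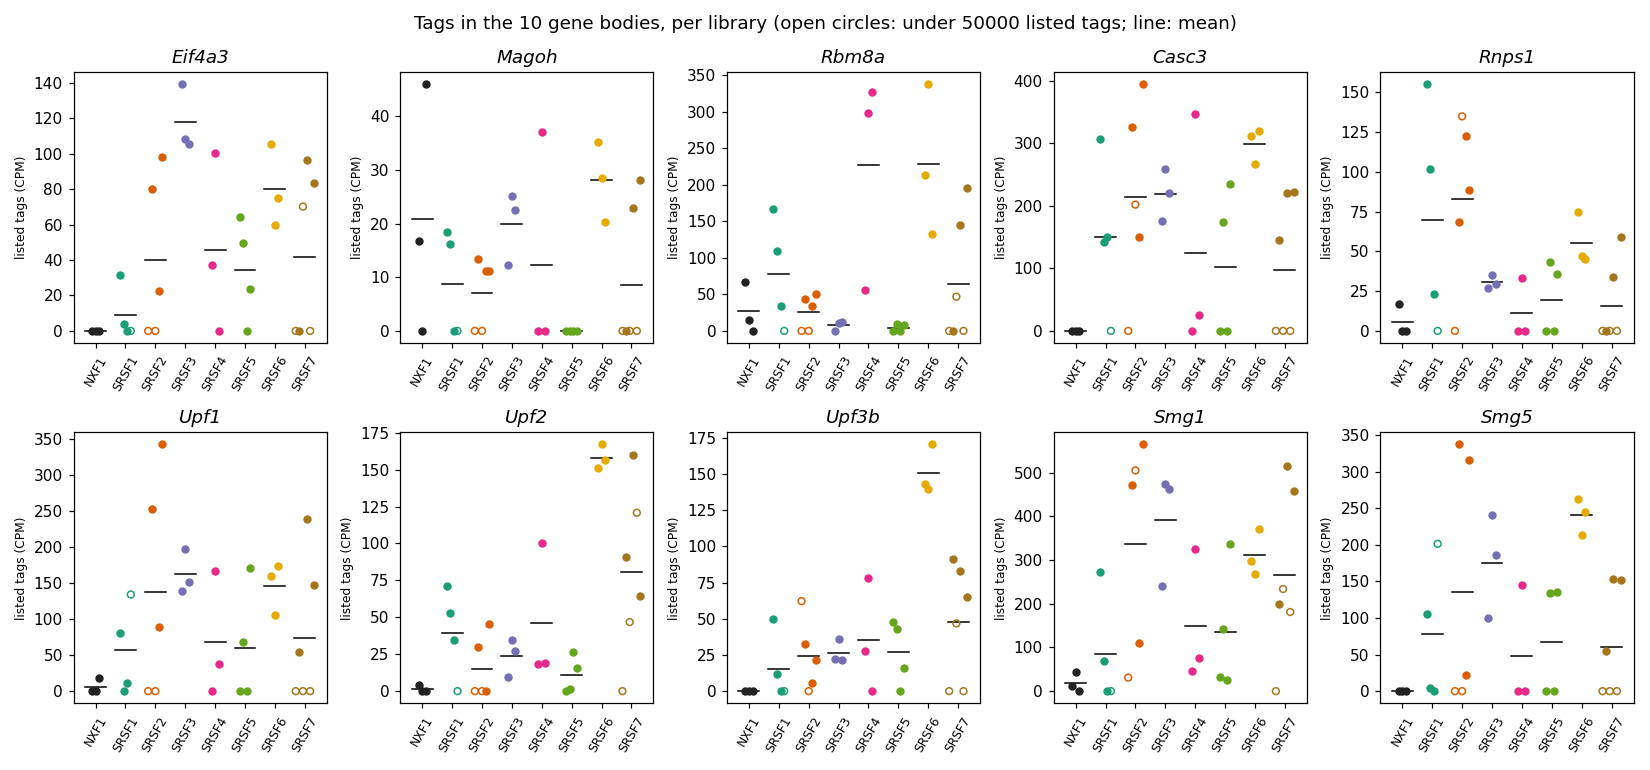
Level of each of the 10 genes in every library: listed tags in the gene body (CPM, vertical axis of each panel), with NXF1 and SRSF1 to SRSF7 along the horizontal axis; circles are libraries, open circles libraries under 50000 listed tags, and lines the mean of a protein. For Rbm8a the SRSF6 libraries sit between 133 and 338 CPM and the SRSF3 libraries between 0 and 11.8 CPM. No single NXF1 library has a tag in Casc3, Eif4a3, Upf3b or Smg5.

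When the 8 proteins were put in order of mean level for each gene, 4 of the 70 pairs of neighbours did not overlap in their libraries. Eif4a3 was above the next protein (SRSF6) in all SRSF3 libraries, and Upf3b above the next (SRSF7) in all SRSF6 libraries. Casc3 and Rnps1 were above their next (SRSF3) in all SRSF6 libraries. The other pairs overlapped. For Casc3 the SRSF6 libraries began at 266.6 CPM, and SRSF2 (up to 394.9 CPM), SRSF4 (347.3) and SRSF1 (307.1) reached above that. For Rnps1 they began at 45.32 CPM, and SRSF1 (up to 155 CPM), SRSF2 (134.8) and SRSF7 (58.94) reached above that. How often neighbours part among all genes was not counted, so the 4 pairs cannot be called unusual.

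Levels were compared with limma voom over all genes and all 31 libraries (6234 genes tested, Benjamini-Hochberg adjustment over all of them, call at an adjusted p under 0.05). Of the members, 9 passed the filter on low values. Magoh did not. It has a near-identical paralog, Magohb, and whether tags of the one were counted for the other was not tested. The log2 changes are differences between mean log2 levels. All comparisons use the same SR protein libraries in turn, so the values of a gene in different comparisons are not independent.

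**Figure D2:**
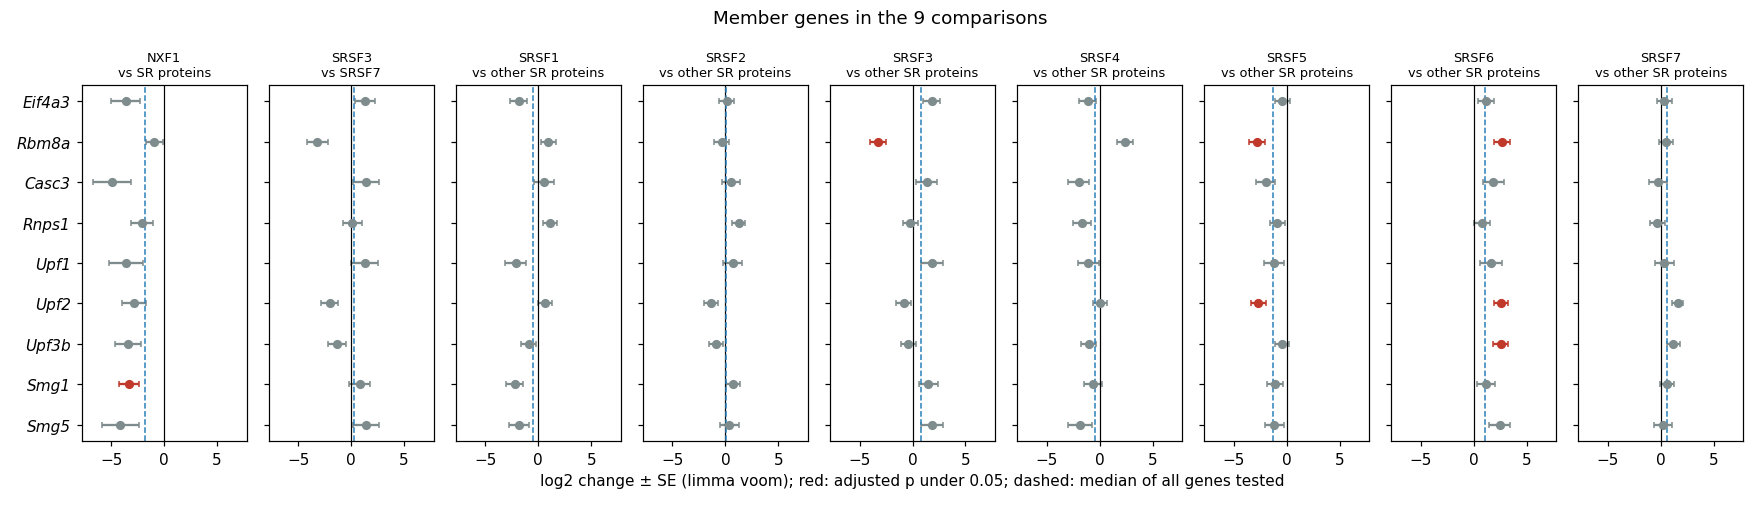
Change of the 9 tested members in each of the 9 comparisons (horizontal axis: log2 change, the named protein over its comparison group; points: fitted value, bars: ± 1 SE, red: called, grey: not called; dashed line: median of all genes tested). SRSF6 has all 9 members above 0 and 3 of them called, SRSF5 has all 9 below 0 and 2 called, and Rbm8a is called in the SRSF3, SRSF5 and SRSF6 panels.

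Rbm8a (chr3:96433851-96437702, plus strand, 6 exons) varied most clearly with the protein. It had 214, 338 and 133 CPM in the SRSF6 libraries and 55.4, 298 and 326 CPM in the SRSF4 libraries. In the SRSF3 libraries it had 0, 11.1 and 11.8 CPM, and in the SRSF5 libraries 0, 9.55, 0 and 7.97 CPM. The SRSF1 libraries had 166, 110, 34.5 and 0 CPM, the SRSF2 libraries 0, 43.1, 0, 33.4 and 50.3 CPM, and the SRSF7 libraries between 0 and 196 CPM (median 23.4). The 4 highest libraries were of SRSF6 and SRSF4, next to which came SRSF7 replicate 6 and SRSF1 replicate 1, and no SRSF3 or SRSF5 library was above 11.8 CPM, but 8 of the 25 libraries of the SR proteins other than SRSF3 were at 0 as well.

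Rbm8a was higher with SRSF6 than with the other SR proteins by 2.65 on the log2 scale (SE 0.768, adjusted p = 0.0388). It was lower with SRSF3 (log2 change -3.27, SE 0.788, adjusted p = 0.00695) and lower with SRSF5 (log2 change -2.79, SE 0.775, adjusted p = 0.0146). With SRSF4 the change of 2.38 (SE 0.783) did not pass (adjusted p = 0.183), and neither did that of SRSF3 against SRSF7 (-3.19, SE 0.952, adjusted p = 0.0695). The SRSF3 call was lost without SRSF3 replicate 1, 2 or 3 (adjusted p = 0.121, 0.0730 and 0.0703), and the SRSF5 call without SRSF5 replicate 2 (adjusted p = 0.0834). The SRSF6 call was lost without any SRSF6 library (adjusted p = 0.133 to 0.281) and, narrowly, without SRSF3 replicate 1 (0.0505) or SRSF4 replicate 1 (0.0555).

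Upf2 (chr2:5872515-5977749, plus strand), whose protein bridges UPF3B and UPF1, had 151, 167 and 156 CPM in the SRSF6 libraries. The 25 libraries of the other SR proteins had 0 to 160 CPM, with a median of 27.2 CPM and 6 at 0. Only SRSF7 replicate 4, the largest library, reached the SRSF6 values. The change with SRSF6 was 2.58 (SE 0.697, adjusted p = 0.0282). In the SRSF5 libraries Upf2 had 0, 1.59, 26.4 and 15.9 CPM, against 0 to 167 CPM (median 39.8) in the 24 other SR protein libraries, and was lower (log2 change -2.68, SE 0.685, adjusted p = 0.00997). The SRSF6 call was lost without any 1 of the SRSF6 libraries (adjusted p = 0.170 to 0.217), and the SRSF5 call without SRSF5 replicate 2 (adjusted p = 0.154).

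Upf3b (chrX:34631673-34650335, minus strand), whose protein ties the EJC to the decay factors, had 143, 139 and 170 CPM in the SRSF6 libraries. In the 25 libraries of the other SR proteins it had 0 to 91.0 CPM with a median of 21.99 CPM, so the groups did not overlap. The change was 2.54 (SE 0.713, adjusted p = 0.0343). It was lost without any 1 of the SRSF6 libraries (adjusted p = 0.197 to 0.217). Upf3b had no tag in any single NXF1 library.

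With these 3 genes, 3 of 9 members tested were called in the SRSF6 comparison, where 4.48% of all genes tested were called. All 9 members had a positive change, with a median of 1.86 against 1.03 for all genes tested, so the whole table leaned the same way. The SRSF6 libraries were all large, with 1155384 to 2323026 listed tags. The SRSF5 libraries had at most 627982, the NXF1 libraries at most 237488, and the SRSF3 libraries 409282 to 2152709. Member levels rose with the library total, and the part of library size in these changes was not tested. Among all genes, 237 calls were higher and 42 lower with SRSF6. With factors from a trimmed mean of M values (TMM) this split became 27 higher and 50 lower and no member was called. Scaled by tags in coding genes it was 124 and 118, with Upf2 alone of the 3 still called and a member median of 0.74. Without a CPM minimum none of the 3 passed (adjusted p = 0.110 to 0.124). In the SRSF5 comparison 2 of 9 members (Upf2 and Rbm8a) were called, beside 21.1% of all genes. The median change was -1.16 for the members and -1.26 for all genes, and 105 genes were called higher and 1213 lower, against 142 higher and 89 lower with TMM factors, under which no member was called (adjusted p = 0.101 for Upf2 and 0.212 for Rbm8a). Scaled by tags in coding genes it was 351 and 514, both members were still called, and the member median turned to 0.25.

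In the SRSF3 comparison 1 of 9 members, Rbm8a, was called, beside 10.7% of all genes. The median change was 1.32 for the members and 0.77 for all genes, so Rbm8a went against the lean of the table. Among all genes 520 calls were higher and 147 lower with SRSF3, against 435 and 459 when libraries were scaled by their tags in coding genes and 197 and 160 with TMM factors. Rbm8a was called under both. Eif4a3, the helicase core, had 139, 108 and 106 CPM in the SRSF3 libraries, against 0 to 105 CPM (median 31.3, 9 at 0) in the 25 libraries of the other SR proteins. These groups did not overlap, yet the change of 1.82 (SE 0.794) did not pass (adjusted p = 0.127).

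No member was called by limma voom for SRSF1 (2.57% of all genes called), SRSF2 (0.433%), SRSF4 (0.417%) or SRSF7 (3.03%), each against the other SR proteins, or for SRSF3 against SRSF7 (1.92%). At an unadjusted p under 0.05 there were 3 members for SRSF1 (Smg1, Upf1 and Eif4a3, all with negative changes), 1 each for SRSF2 (Rnps1, 1.25), SRSF4 (Rbm8a) and SRSF7 (Upf2, 1.57), and 2 for SRSF3 against SRSF7 (Upf2 and Rbm8a, both negative). The limma-trend test on log2(CPM + 1) called no member gene in any of the 9 comparisons. The median changes of the members against those of all genes were -0.90 and -0.53 for SRSF1, 0.36 and 0.09 for SRSF2, -1.07 and -0.43 for SRSF4, 0.33 and 0.54 for SRSF7, and 0.79 and 0.24 for SRSF3 against SRSF7. The split of all calls moved with TMM factors to 49 higher and 28 lower for SRSF4, against 24 and 2, and to 25 and 50 for SRSF7, against 156 and 33. With coding-gene scaling it was 139 and 66 for SRSF4 and 168 and 93 for SRSF7.

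NXF1 cross-linked sparsely to these RNAs. Its 3 libraries listed 28, 8 and 7 member tags, in 5, 2 and 2 of the 10 genes, and none in Casc3, Eif4a3, Upf3b or Smg5. Rbm8a had 67.4, 14.2 and 0 CPM, Magoh 16.8, 0 and 46.0 CPM, and Smg1, the kinase of the pathway, 12.6, 42.7 and 0 CPM. In the 28 SR protein libraries Smg1 had 0 to 565 CPM with a median of 238 CPM and 3 at 0, so the ranges overlapped. Smg1 was lower with NXF1 than with the SR proteins (log2 change -3.30, SE 0.965, adjusted p = 0.0348), and it was the 1 member of 9 called, beside 6.18% of all genes. The count was 7 with libraries of at least 50000 tags only, 4 with those of the later run year and 3 with a CPM minimum 4 times higher. The 6.18% is that of the main fit. The shares of all genes called under these other settings are not given, so their counts cannot be called unusual. Every NXF1 library was needed for the Smg1 call (adjusted p = 0.182 to 0.260 without 1 of them), and with TMM factors it was lost (adjusted p = 0.197). All genes had 223 calls higher and 162 lower with NXF1, against 285 and 5 with TMM factors and 617 and 66 with coding-gene scaling. Rbm8a had a change of -0.93 (SE 0.796, adjusted p = 0.336) and Rnps1 one of -2.09 (SE 1.07, adjusted p = 0.137), beside a median of -1.83 for all genes. No median is given for the members, because 4 of the 9 were at 0 in every NXF1 library and their fitted values depend on the offset added to 0. That offset, 0.5 tags, was worth 38.4 CPM in the smallest library and 0.112 CPM in the largest.

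The deposited file of the summed NXF1 libraries, thresholded on its own, listed 103 member tags at 94 positions, of which 37 tags lay in Smg1, 26 in Magoh and 24 in Rbm8a. It also listed 4 tags in Casc3, 3 in Upf3b, 2 in Smg5 and 1 in Eif4a3, genes with none in the single NXF1 libraries. Listed positions of SRSF6 lay within 30 nt of all 94 NXF1 positions, those of SRSF3 of 93 and those of SRSF2 of 92. For SRSF4 it was 80, for SRSF7 74, for SRSF1 68, for SRSF5 67 and for the control 0. The summed file of SRSF6 held 7437045 tags, that of SRSF5 1684467 and that of the control 21880, so these counts moved with file size, and the part of file size in them was not tested. The file deposited as the SRSF7 sum held 1449645 tags, fewer than SRSF7 replicate 4 alone (4459523), so its 74 cannot stand for all SRSF7 libraries.

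Clusters of listed positions of the 8 proteins were joined into 388969 sites, of which 479 lay in the members (163 in Smg1, 59 in Casc3, 56 in Smg5, 54 in Upf1, 48 in Upf2, 39 in Upf3b, 23 in Rnps1, 19 in Eif4a3, 11 in Rbm8a and 7 in Magoh). Of these, 10 passed the filter on low values and were tested among 6649 sites: 5 in Casc3, 3 in Rbm8a and 1 each in Rnps1 and Smg5. The 7 of them with at least 1 call lay in Rbm8a, Casc3 and Smg5.

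The 3 Rbm8a sites held most of the tags of the gene. The exon 1 site spans the start codon, with 364 tags in the coding sequence (CDS) and 272 in the 5′ UTR. The exon 4 site lay in the CDS with all of its 592 tags, and the exon 6 site spans the stop codon, with 187 tags in the CDS and 971 in the 3′ UTR. They are shown because Rbm8a carried most calls. Here and below, capitals mark the base at the strongest listed position of a site, in a window of 30 nt on the transcript strand (mm9).
Rbm8a exon 1, chr3:96433890-96433919, plus strand: ggacgtgctggatctTcacgaggcgggggg
Rbm8a exon 4, chr3:96434794-96434823, plus strand: gaaggttggattctcTttgtcactggagtc
Rbm8a exon 6, chr3:96435735-96435764, plus strand: accttgtgtttatatTtaatttcttaccct
The strongest base was a T in all 3, within a run of A and T in the exon 6 window.

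At the exon 6 site SRSF4 had 37.0, 228 and 245 CPM, and the 25 other SR protein libraries had 0 to 149 CPM with a median of 6.50 CPM. The change was 3.10 (SE 0.658, adjusted p = 0.00220), and this was the 1 of 10 member sites called for SRSF4, beside 10.1% of all sites. Without SRSF4 replicate 3 it was 2.62 (adjusted p = 0.0549), and the call was lost with TMM factors (0.0862) and without a CPM minimum (0.0653). SRSF6 had 85.2, 149 and 43.9 CPM there, a change of 2.32 (SE 0.666, adjusted p = 0.0101) that was lost without SRSF6 replicate 1 (0.0629) or 2 (0.142). This site held 76.3% of the SRSF4 tags in Rbm8a, 39.6% of the SRSF6 tags and 23.0% of the SRSF7 tags.

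At the exon 1 site SRSF6 had 46.5, 57.1 and 38.7 CPM, SRSF3 had 0, 2.32 and 0 CPM, and SRSF7 had 0 to 73.5 CPM. At the exon 4 site SRSF6 had 47.4, 67.5 and 27.9 CPM, SRSF3 had 0, 1.86 and 3.59 CPM, and SRSF7 had 0 to 71.6 CPM. SRSF5 listed no tag at either in any of its 4 libraries and 1 library with 7.97 CPM at the exon 6 site. SRSF6 was therefore high at all 3 sites, while SRSF3 and SRSF5 were at or near 0 at all 3. Such values were not particular to them. Of the 25 libraries of the SR proteins other than SRSF3, 12 were at 0 at exon 1 (median 11.85 CPM). At exon 4 it was 14 (median 0), and at exon 6 it was 11 (median 11.5 CPM).

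With SRSF6 the changes were 2.47 (SE 0.591, adjusted p = 0.00239) at exon 1 and 2.33 (SE 0.575, adjusted p = 0.00315) at exon 4, and the exon 1 call was kept whichever library was left out. The exon 4 site passed the filter through SRSF6 replicates 1 and 2 and SRSF7 replicate 6 alone, so it could not be tested without any of these. Its SRSF6 call was kept without each of the 28 other libraries and with no CPM minimum (adjusted p = 0.0478). With SRSF3, against the other SR proteins, they were -4.18 (SE 0.815, adjusted p = 0.000204) at exon 1, -2.47 (SE 0.626, adjusted p = 0.00228) at exon 4 and -2.31 (SE 0.704, adjusted p = 0.00982) at exon 6. The exon 1 call was kept whichever library was left out. That at exon 4 needed SRSF3 replicate 2 (0.0580 without it), and that at exon 6 needed each SRSF3 library (adjusted p = 0.0502 to 0.0775).

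Between SRSF3 and SRSF7 all 3 Rbm8a sites were called lower with SRSF3, by log2 changes of -5.43 (SE 0.920, adjusted p = 0.000182) at exon 1, -3.62 (SE 0.769, adjusted p = 0.00115) at exon 4 and -2.42 (SE 0.889, adjusted p = 0.0462) at exon 6. The exon 6 call was lost without any 1 of 12 libraries (adjusted p = 0.0508 to 0.175), and its sign turned with limma-trend (0.28, adjusted p = 0.935). The other 2 calls were lost with limma-trend too, at -2.31 for exon 1 (adjusted p = 0.317) and -0.63 for exon 4 (adjusted p = 0.801). That at exon 4 was also lost with TMM factors (-2.33, adjusted p = 0.0815). For SRSF7 against the other SR proteins exon 1 (2.16, SE 0.560, adjusted p = 0.0103) and exon 4 (1.76, SE 0.567, adjusted p = 0.0383) were called higher, 2 of 10 member sites beside 11.8% of all sites. The exon 1 call was lost without SRSF7 replicate 6 (0.114), and that at exon 4 without SRSF3 replicate 2, SRSF5 replicate 2, SRSF6 replicate 3 or SRSF7 replicate 4 (0.0510 to 0.130). Both were lost with TMM factors (0.237 and 0.555) and with replicate number as a block (0.171 and 0.4435). With limma-trend the exon 1 change was 0.43 (adjusted p = 0.788), and the exon 4 change turned to -0.44 (adjusted p = 0.772). Of 6 SRSF7 libraries, 3 had tags at exon 1 and 2 at exon 4. Mean levels were 27.6 CPM against 15.6 in the others at exon 1, and 17.2 against 12.8 at exon 4. The 0.5 tags added to 0 were worth 38.4 CPM in SRSF7 replicate 1, and their part was not tested. All sites had 484 calls higher and 298 lower with SRSF7, against 121 and 212 with TMM factors and 354 and 418 with coding-gene scaling.

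With SRSF5 all 3 Rbm8a sites were called lower, 3 of 10 member sites beside 33.4% of all sites. At exon 6 the change was -3.44 (SE 0.840, adjusted p = 0.00321), and no fold is given at exons 1 and 4, where SRSF5 was at 0. All 3 calls were lost without SRSF5 replicate 2 (adjusted p = 0.0532 to 0.130) and without a CPM minimum (0.0635 to 0.0884). All sites had 690 calls higher and 1528 lower with SRSF5, against 1615 and 1081 with coding-gene scaling.

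**Figure D3:**
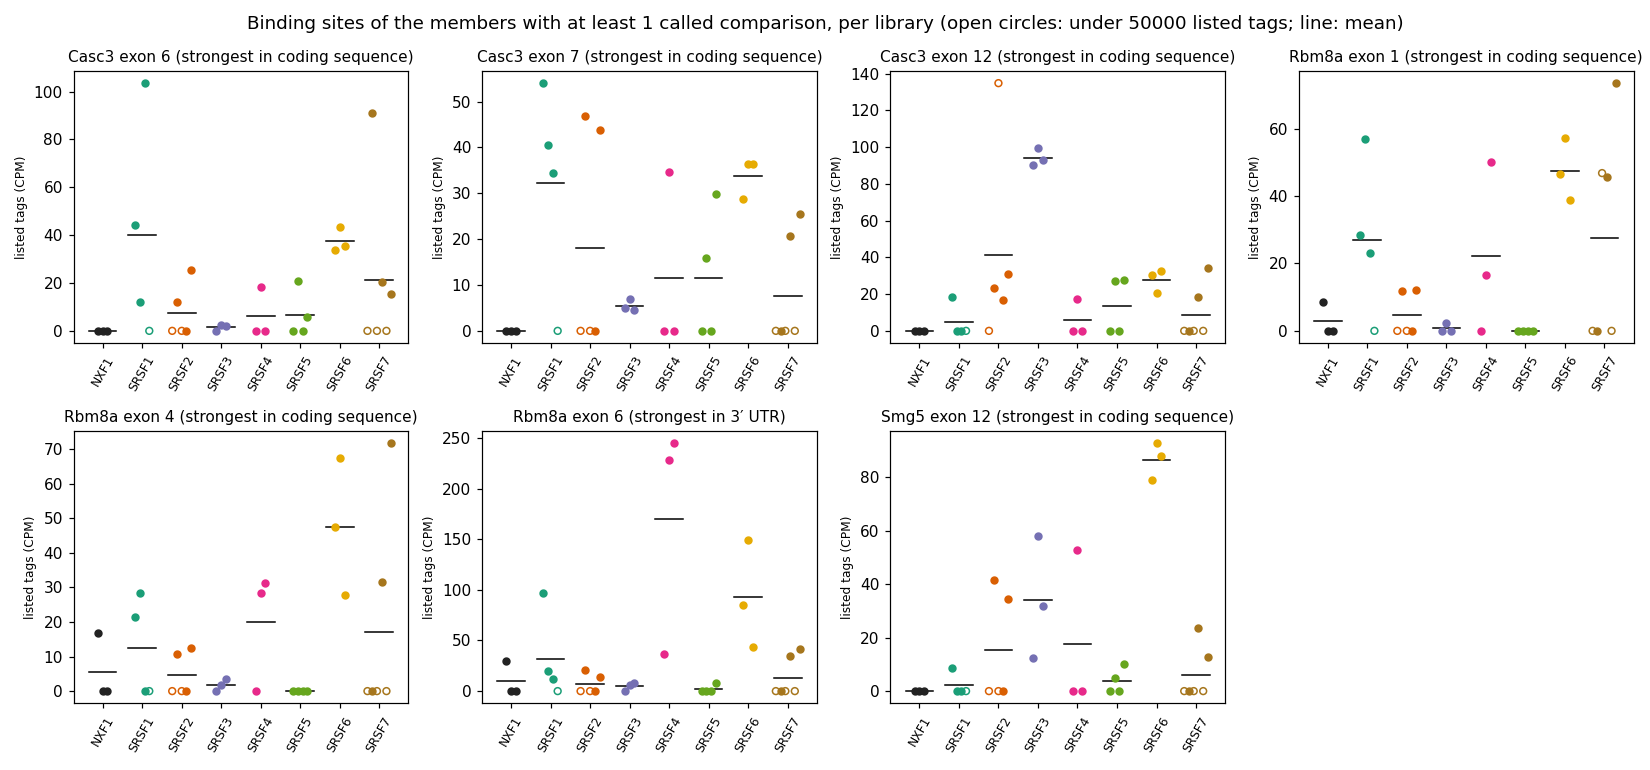
The 7 member sites with at least 1 call: listed tags at the site (CPM, vertical axis of each panel) in every library, with the proteins along the horizontal axis; open circles are libraries under 50000 listed tags and lines the mean of a protein. SRSF3 sits at 90.4 to 99.4 CPM at the Casc3 exon 12 site and at no more than 2.32 CPM at the Rbm8a exon 1 site, and SRSF6 sits at 78.8 to 92.6 CPM at the Smg5 exon 12 site.

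Casc3 (chr11:98666219-98695128, plus strand, 15 exons) showed the opposite shift between its sites with SRSF3. The 3 called sites are shown because the same protein was high at 1 and low at the others.
Casc3 exon 6, strongest base in the CDS, chr11:98683081-98683110, plus strand: ctttgagcacgatctTcgaggacagactca
Casc3 exon 7, strongest base in the CDS, chr11:98683750-98683779, plus strand: ggccccgaaatctcgGcaggagctaattgc
Casc3 exon 12, strongest base in the CDS, chr11:98690627-98690656, plus strand: ttgctcctacctactTttctgctccgggtg
The exon 12 window is rich in C and T.

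At exon 12 SRSF3 had 90.4, 99.4 and 92.9 CPM, against 0 to 135 CPM (median 16.7, 12 at 0) in the 25 libraries of the other SR proteins. SRSF2 replicate 3 alone was above the SRSF3 libraries. The change was 2.46 (SE 0.560, adjusted p = 0.000919), and it was called whichever library was left out. The site passed the filter only through the 3 SRSF3 libraries and SRSF2 replicate 3, so it was tested because it was high with SRSF3. With no CPM minimum the call was kept (adjusted p = 0.0152). At exon 6 SRSF3 had 0, 2.32 and 2.05 CPM, against 0 to 104 CPM (median 11.9), a change of -3.07 (SE 0.633, adjusted p = 0.000350) that was likewise called without any 1 of the libraries. At exon 7 SRSF3 had 4.89, 6.97 and 4.62 CPM, against 0 to 54.0 CPM (median 15.9), a change of -1.93 (SE 0.614, adjusted p = 0.0131) that was lost without SRSF3 replicate 2 (0.0551) or 3 (0.0831). Exon 12 held 40.8% of the SRSF3 tags in Casc3, and 4.92% to 13.7% of those of each other SR protein. Exon 6 held 0.849% of the SRSF3 tags, and 5.18% to 16.3% of those of each other SR protein.

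Together, 6 of 10 member sites were called for SRSF3 against the other SR proteins, 1 higher (Casc3 exon 12) and 5 lower, beside 38.4% of all sites. The count was 5 with both doubted SRSF2 libraries left out. The median change was -1.80 for the member sites and -0.23 for all sites. Among all sites 1227 calls were higher and 1326 lower, against 1478 and 601 with TMM factors, under which Casc3 exons 6 and 12 and Rbm8a exon 1 were called, and 970 and 2021 with coding-gene scaling. With limma-trend no member site was called for SRSF3, at an adjusted p between 0.0547 for Casc3 exon 12 and 0.964 for Casc3 exon 7.

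For SRSF3 against SRSF7, 5 of 10 member sites were called (23.2% of all sites). Casc3 exon 12 was higher (90.4 to 99.4 CPM with SRSF3 against 0 to 34.5 CPM with SRSF7, log2 change 2.09, SE 0.725, adjusted p = 0.0344). Casc3 exon 6 was lower, with 0 to 2.32 CPM with SRSF3 and 0 to 91.0 CPM with SRSF7 (log2 change -3.38, SE 0.779, adjusted p = 0.00221), as were the 3 Rbm8a sites. At exon 12 the libraries of SRSF3 and SRSF7 did not overlap, but its call was lost without any 1 SRSF3 library, SRSF7 replicate 2 or SRSF7 replicate 4 (adjusted p = 0.0520 to 0.0985). It was also lost with no CPM minimum (0.0854), with replicate number as a block (0.0638) and in the later run year (0.0796). All 3 SRSF3 libraries and no SRSF7 library carried this site past the filter, so it was tested because it was high with SRSF3. The call at exon 6 was kept whichever library was left out. The median change was -1.73 for the member sites and -0.21 for all sites. All sites had 515 calls higher and 1028 lower, against 980 and 444 with TMM factors, under which 2 member sites were called.

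Casc3 exon 6 and Rbm8a exon 1 were also called higher with SRSF1, 2 of 10 member sites beside 17.2% of all sites. At Casc3 exon 6 the first 3 SRSF1 libraries had tags, up to 104 CPM in replicate 3, and replicate 4 had none, against 0 to 91.0 CPM (median 2.19) in the other SR protein libraries (log2 change 1.78, SE 0.555, adjusted p = 0.0257). It was lost without SRSF1 replicate 1 (0.103) or 3 (0.204), which were also 2 of the 4 libraries that carried the site past the filter. At Rbm8a exon 1 the change was 2.04 (SE 0.574, adjusted p = 0.0140), lost without SRSF1 replicate 2 (0.115). With TMM factors neither passed (0.273 and 0.241).

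Smg5 (chr3:88140182-88166259, plus strand, 22 exons) had its strongest site at exon 12, with 730 tags in the CDS and 289 in the adjoining intron. It is shown because its call was kept under every setting that tested it.
Smg5 exon 12, strongest base in the CDS, chr3:88155314-88155343, plus strand: ctgggccccagtgaaGcaagcattgccagc
SRSF6 had 78.8, 92.6 and 87.8 CPM at this site, above all of the 25 other SR protein libraries, which had 0 to 58.1 CPM with a median of 0. The change was 2.65 (SE 0.646, adjusted p = 0.00283). The call was kept in each of the 7 alternatives that gave a value and without any 1 of the libraries (adjusted p = 0.000456 to 0.0362). Of the 5 libraries that carried the site past the filter 3 were of SRSF6, and it would not have been tested on the other 2. With no CPM minimum the adjusted p was 0.0319. Over the whole gene Smg5 had 263, 213 and 245 CPM with SRSF6, against 0 to 337 CPM in the other SR protein libraries, and the change of 2.44 (SE 1.02) did not pass (adjusted p = 0.132). The site held 34.6% of the SRSF6 tags and 36.4% of the SRSF4 tags in Smg5, and at most 20.9% of those of any other SR protein.

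In all, 5 of 10 member sites were higher with SRSF6 than with the other SR proteins, beside 24.2% of all sites called in either direction: the 3 Rbm8a sites, Smg5 exon 12 and Casc3 exon 6. The last had 33.6, 43.3 and 35.4 CPM with SRSF6, against 0 to 104 CPM with the other SR proteins, a change of 1.65 (SE 0.573, adjusted p = 0.0331) that was lost without any 1 of the SRSF6 libraries (0.109 to 0.179). The median change was 1.46 for the member sites and 0.37 for all sites. All sites had 1264 calls higher and 342 lower with SRSF6, against 808 and 780 with coding-gene scaling, under which Casc3 exon 6 was not called (0.155). No member site was called by limma voom for NXF1 (11.7% of all sites) or SRSF2 (6.86%), while 3 Casc3 sites for NXF1 and 1 for SRSF2 had an unadjusted p under 0.05. The limma-trend test called none in either. For NXF1 all sites had 669 calls higher and 109 lower, against 1479 and 33 with coding-gene scaling. Over all 9 comparisons the member sites called by limma-trend too were Smg5 exon 12 and Rbm8a exon 4 with SRSF6, and Casc3 exon 12 with SRSF3 against SRSF7.

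The other members had no called site. Rnps1 (chr17:24551620-24562840, plus strand, 16 exons) had 45.5% of its tags in exon 2, the highest share that 1 exon held in any of the 10 genes, and its strongest site there is shown for that reason.
Rnps1 exon 2, strongest base in the CDS, chr17:24555085-24555114, plus strand: aggggagaatggattTatcaggagtgaaaa
The site spans the start codon, with 404 of its 570 tags in the 5′ UTR and 166 in the CDS. It had 20.8 to 35.7 CPM in the SRSF6 libraries, up to 88.2 CPM in the SRSF1 libraries and 16.8 CPM in 1 of the 3 NXF1 libraries, where it held all of the Rnps1 tags. Eif4a3 (chr11:119149677-119161403, minus strand) had its strongest site at the start codon in exon 1 (242 tags in the CDS and 119 in the 5′ UTR), and Magoh (chr4:107552360-107560029, plus strand) in exon 1 too (149 tags in the 5′ UTR and 53 in the CDS). In Magoh that site was listed in all SRSF3 libraries (12.2 to 14.9 CPM) and in no single SRSF5 library, none of which had a tag in the gene. The deposited file of the summed SRSF5 libraries did list positions in Magoh. Upf1 (chr8:72855421-72877172, minus strand) and Smg1 (chr7:125274832-125387151, minus strand) had theirs in the 3′ UTR of exons 24 and 63, and Upf2 had its own in the CDS of exon 3. That of Upf3b, in exon 10, spans the stop codon, with 190 tags in the CDS and 74 in the 3′ UTR. The Upf3b site had 25.8, 37.2 and 33.5 CPM with SRSF6, against 0 to 11.8 CPM with the other SR proteins. It did not pass the filter and was not tested.

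**Figure D4:**
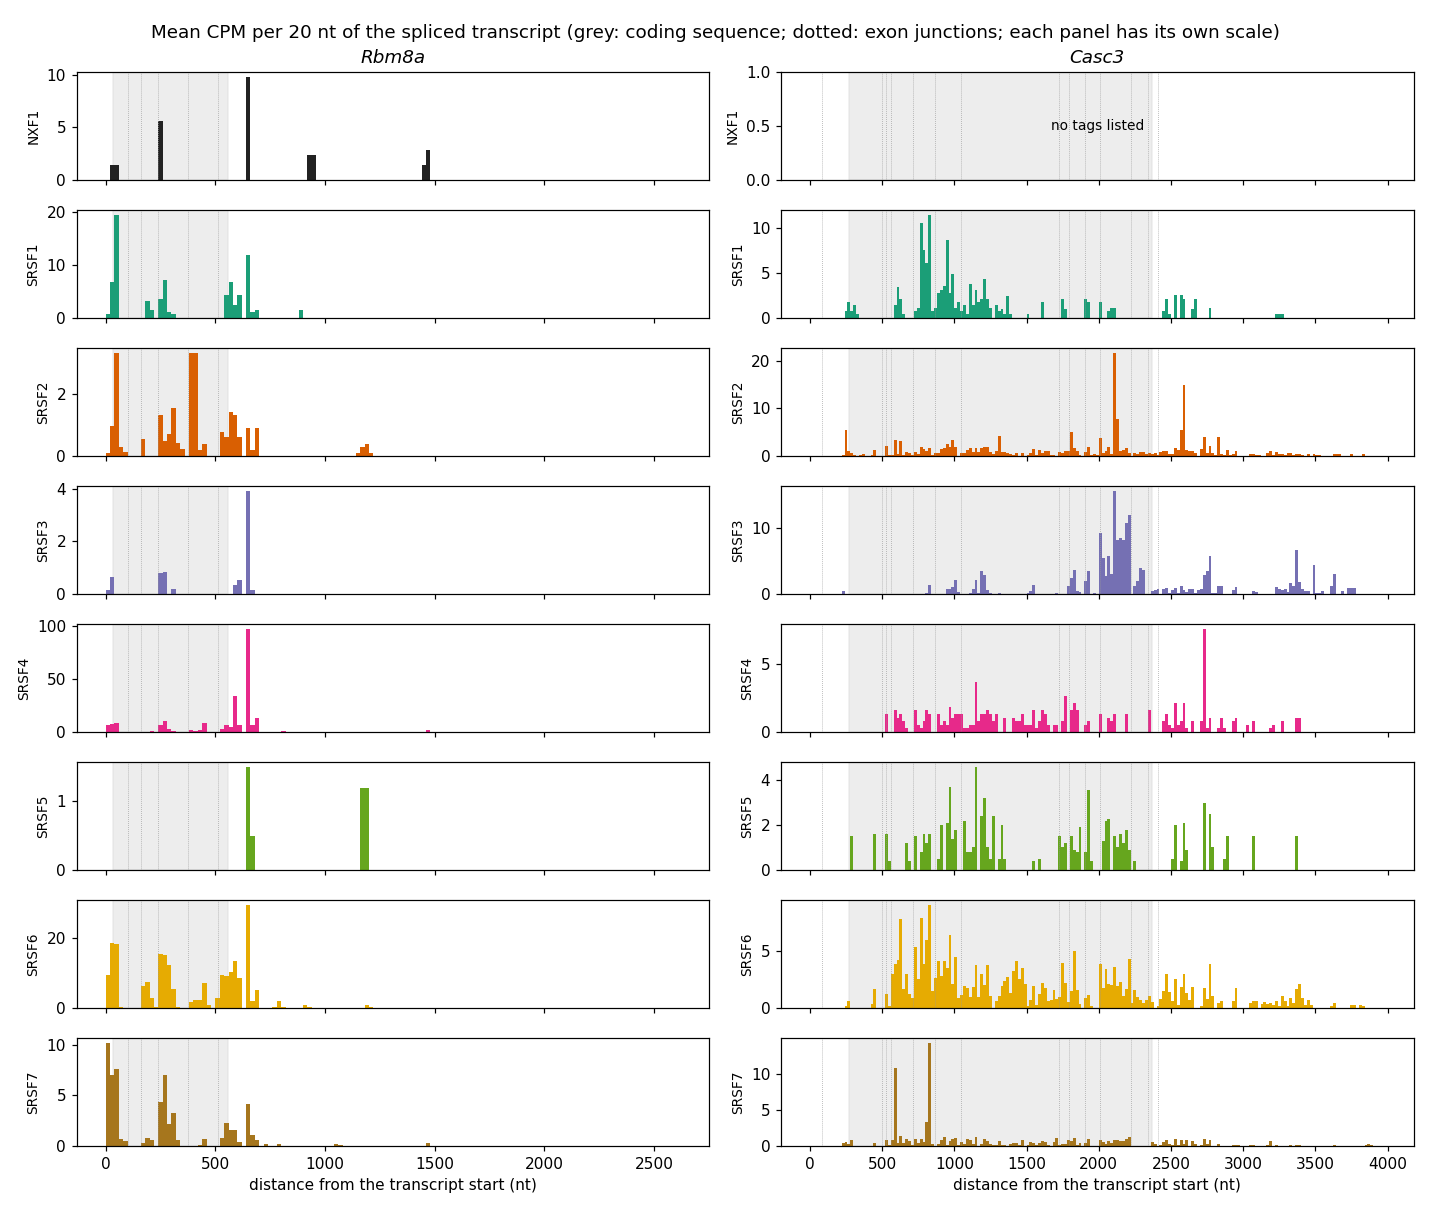
Mean level along the spliced Rbm8a and Casc3 transcripts (CPM per 20 nt, vertical axis, each panel on its own scale; horizontal axis: distance from the transcript start in nt; grey: coding sequence; dotted lines: exon junctions), 1 row for each protein. SRSF4 peaks in the Rbm8a 3′ UTR, SRSF3 in exon 12 of Casc3, and the single NXF1 libraries have no tag listed in Casc3.

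By transcript part, the 10 genes were bound mainly in exons. In the 22 libraries with at least 20 member tags, the CDS of the representative transcript took a median of 68.0% of the member tags, against 48.1% of the tags of all coding genes in the same libraries, and was higher in 21 of 22. Introns took a median of 9.87%, against 25.1%, and were lower in 22 of 22. The 3′ UTR took a median of 11.4%, against 10.6%, and was higher in 14 of 22. These are descriptions of a small set of genes with its own exon lengths, and no test was made on them.

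The genes differed among themselves. Upf2 had 81.2% of its tags in the CDS and 4.26% in introns, which cover 99761 of its 105235 nt, and Smg1 had 79.2% in the CDS. Rbm8a had 36.2% in the 3′ UTR, which is 2045 nt long, while Rnps1 had none there and 34.96% in the 5′ UTR. Introns took 23.6% of the tags of Upf3b, 21.2% in Rnps1 and 21.1% in Smg5.

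SRSF4 had the largest 3′ UTR share of the SR proteins. The 3′ UTR took 40.0%, 25.6% and 55.8% of the member tags in the 3 SRSF4 libraries, on 20, 2066 and 77 member tags. Over all coding genes it took 15.3%, 17.65% and 17.6% in these libraries, and 6.17% to 15.6% in the 18 others compared. SRSF4 was thus the highest there too. The mean member share was 40.5% ± 15.1 (SD, n = 3), against 11.3% ± 3.998 (SD, n = 18) in the other SR protein libraries, a difference of 29.2 percentage points. The exact two-sided permutation test over libraries gave p = 0.000752, the smallest this design allows, and an adjusted p of 0.0181 over the 24 share comparisons. Rbm8a supplied 305 of the SRSF4 tags in 3′ UTRs, or 52.7% of them. Without Rbm8a, a choice made after seeing the data, the difference was 5.52 points (exact permutation test, adjusted p = 0.307). It was also lost without SRSF4 replicate 1 (29.4 points), 2 (36.6 points) or 3 (21.5 points), where the smaller group limits the p that can be reached.

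No other comparison of SR protein shares passed. NXF1 had 1 library with at least 20 member tags, too few for a test to pass the adjustment, and its values are descriptions. In that library the 3′ UTR took 60.7% of 28 tags, against 15.5% ± 12.1 (SD, n = 21) in the SR protein libraries (exact permutation test, p = 0.0455, the smallest possible, adjusted p = 0.273). Of the NXF1 tags in 3′ UTRs, 12 lay in Rbm8a, 7 in Magoh and 3 in Smg1. The SRSF2 intron share was 25.5% ± 20.9 (SD, n = 4), against 11.2% ± 7.48 (SD, n = 17) in the other SR protein libraries (exact permutation test, p = 0.0359, adjusted p = 0.273). The SRSF4 CDS share was 47.9% ± 11.9 (SD, n = 3), against 67.5% ± 12.9 (SD, n = 18; exact permutation test, p = 0.0286, adjusted p = 0.273).

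**Figure D5:**
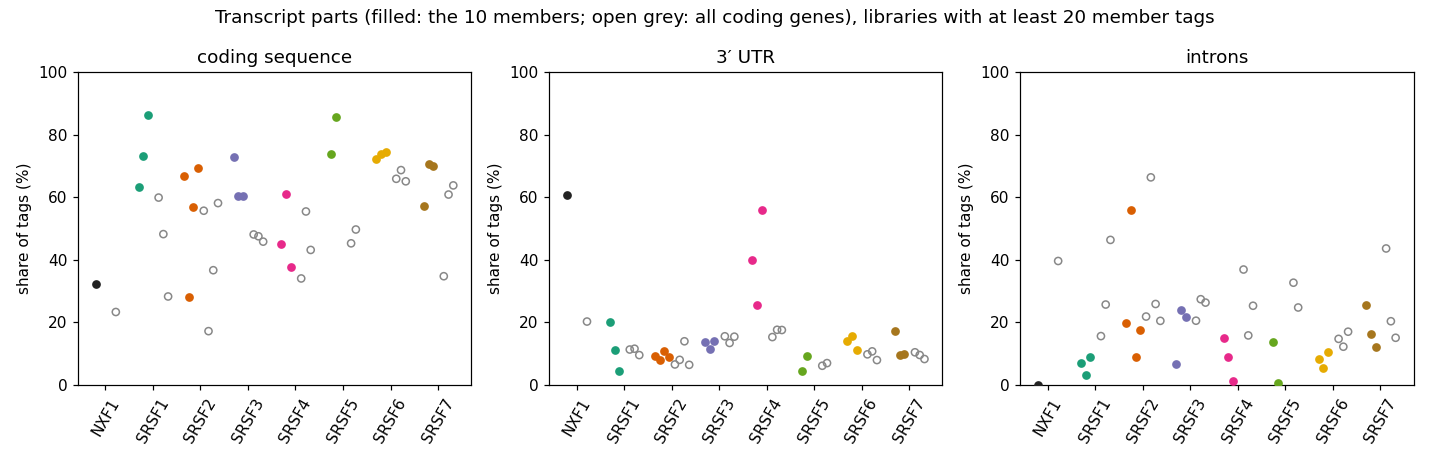
Share of tags in the coding sequence, the 3′ UTR and introns (%, vertical axis) for each of the 22 libraries with at least 20 member tags, by protein along the horizontal axis; filled circles are the 10 members and open grey circles all coding genes of the same library. The 3 SRSF4 libraries lie at 25.6% to 55.8% in the 3′ UTR panel, and the members lie below all coding genes in the intron panel in 22 of 22 libraries.

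Because the EJC is known to sit just upstream of exon junctions, the ends of the 133 internal exons of the members with at least 100 nt were examined. In the 14 libraries with at least 100 tags in these exons, the last 50 nt held 8.69% to 27.8% of the tags (median 16.4%), against 27.6% of their length and a median of 16.9% for all genes. The first 50 nt held a median of 30.9%, against 33.6% for all genes. All 14 were SR protein libraries, and 13 of them had fewer member tags in the last 50 nt than the share of length. No NXF1 library had more than 9 tags in these exons, and no test was made on these shares.

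Short sequences near the listed positions of the members were counted in windows of 30 nt on the transcript strand. The motif CNTC, the motif GGAGA, the motif GAAGAA and the motif GACGAC were searched. None contains another, although a window can hold several. CNTC was present at 55.3% of the 2897 SRSF3 positions in the members and 56.1% of SRSF3 positions in all coding genes. It was present at 39.9% of the 5211 SRSF7 positions, against 42.2% in all coding genes, and at 8 of 36 NXF1 positions (22.2%), against 34.4%. GGAGA was present at 7.79% of the SRSF6 positions in the members and 7.68% of the SRSF4 positions, against 6.44% and 5.55% in all coding genes. GACGAC was present at 2 of 5211 SRSF7 positions in the members (0.0384%), against 0.532% in all coding genes, and at 1 of 2897 SRSF3 positions (0.0345%), against 0.305%. In the summed files it was 0.137% against 0.627% for SRSF7 and 0.0534% against 0.303% for SRSF3, on 2 positions each. Positions of 1 site share their sequence, so these shares are descriptions.

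A list of 26 other EJC, NMD and partner genes was counted in the same fit. All 26 were matched in the annotation and 18 were tested. With NXF1, Srrm1, a splicing coactivator (log2 change -3.76), and Acin1, which joins RNPS1 in the ASAP complex (-2.79), were lower, and no gene of the list was higher. With SRSF5, Srrm1 (-3.70) and Pnn, which joins RNPS1 in the PSAP complex (-3.62), were lower, for SRSF6 Pnn was higher (3.83), and for SRSF7 Nbas, a factor linked to NMD, was higher (2.28). Their adjusted p lay between 0.0106 and 0.0313. All of these calls were lost with TMM factors and with limma-trend. Those of NXF1 were also lost without any 1 NXF1 library (adjusted p up to 0.247 for Srrm1 and 0.284 for Acin1 over all settings), and that of Pnn with SRSF6 without any 1 SRSF6 library (up to 0.325). With SRSF5, Srrm1 was lost without SRSF5 replicate 1 or 3 (up to 0.331) and Pnn without SRSF5 replicate 2 (up to 0.381). Nbas was lost in 5 of 9 alternatives and without SRSF6 replicate 2 or SRSF7 replicate 1, 2, 3 or 5 (up to 0.395). In those SRSF7 replicates its values of 117 to 384 CPM rested on 2 to 8 tags each. SRSF7 replicates 4 and 6, with 280 and 59 Nbas tags, had 62.8 and 53.5 CPM. No gene of the list was called for SRSF1, SRSF2, SRSF3, SRSF4 or SRSF3 against SRSF7. Pnn had 354, 495 and 341 CPM in the SRSF6 libraries, and 0, 0, 79.1 and 14.0 CPM in the SRSF5 libraries. The median change of the 18 genes was -1.63 for SRSF5 and 1.45 for SRSF6, the same lean as in the table of all genes.

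Over the 31 libraries the genes whose level was most like the summed level of the members were Usp8 (Spearman's rho 0.931), Son (0.929), Mdn1 (0.922), Kdm5a (0.919) and Hsd3b7 (0.918), of 6225 genes compared. All of them share the libraries and their totals with the members.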

How the data were processed

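iCLIP was measured in 31 libraries of 8 GFP-tagged proteins and 4 pooled control libraries. The authors deposited lists of cross-linked positions with signed whole-number tag counts (unique cDNAs, in no scaled unit): positions kept at a false discovery rate under 0.05 from 100 permutations in a neighbourhood of 15 nt, on mm9 with segments of Ensembl 59. The submitters' processing notes name CASAVA 1.4; no source used here gives an aligner. Listed totals are therefore not sequencing depth, and a 0 means only that a position was not listed. Shares and levels carry counting error besides, which is larger in small libraries.

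Tags were given to genes by strand (Python 3.11.15, pandas 2.3.3, scipy 1.17.1) and scaled to CPM. The authors' deposited clusters of the 8 proteins, which for SRSF2, SRSF3 and SRSF6 came from single libraries, were joined into sites where they lay within 30 nt on 1 strand. Genes or sites with at least 42.1 CPM (10 tags in the median library of 237488) in 3 libraries and 15 tags in all were tested with limma 3.58.1 voom (R 4.3.3), 1 fit over 31 libraries, and scripts were tested on simulated data. Shares were compared with the exact two-sided permutation test over libraries of at least 20 member tags. Named genes are the members, named sites those called or strongest in a gene. The members, lists and tests were chosen with earlier results of these data known. Alternatives were other scalings, CPM minimums, limma-trend, a replicate block, subsets of libraries and each library left out. Reads were not reprocessed. A further gene of the pathway list is not reported here.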

Additional observations from a re-analysis of the deposited data

Results flagged for a closer look

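Eif4a3 had 31.28 CPM in SRSF1 replicate 1, far above the next of the 4 SRSF1 libraries (4.06 CPM): the gap was 0.870 of the range of the group. It was 1 of 39 groups of libraries examined, and chance alone sets apart about 5% of such groups.

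Tags on the strand opposite to a member lay outside the comparisons. There were 36 in the body of Casc3, which overlaps Gm12359, and 6 in that of Upf1, which overlaps Lass1 and Gdf1, against 0 in the control for both.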

How the results depend on the processing

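Member genes called changed as follows. The shares of all genes or sites called under each setting are not given in this section. Its counts show how far the calls move and are not results about the members. With TMM factors none was called for NXF1, SRSF5 or SRSF6 (0 each, against 1, 2 and 3). Scaling by tags in coding genes called 2 for SRSF3 against SRSF7, 1 for SRSF1, 2 for SRSF3, 1 for SRSF4 and 1 for SRSF6. A CPM minimum 4 times higher called 3 for NXF1, 1 for SRSF5 and 1 for SRSF6, no minimum 0 for SRSF6, and limma-trend 0 for NXF1, SRSF3, SRSF5 and SRSF6. For NXF1, libraries of at least 50000 tags called 7 and those of the later run year 4.

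For member sites, TMM factors called 2 for SRSF3 against SRSF7, 3 for SRSF3, and 0 for SRSF1, SRSF4 and SRSF7. Coding-gene scaling called 7 for SRSF1 and 1 for SRSF2. No CPM minimum called 33 for SRSF3 against SRSF7, 29 for SRSF3, 20 for SRSF7, 10 for SRSF6 and 0 for SRSF1, SRSF4 and SRSF5, with more member sites tested. How many were tested then is not given, so these counts cannot be set against those of the main fit. The minimum 4 times higher left no member site to test, so it gave 0 for SRSF3 against SRSF7, SRSF1, SRSF3, SRSF4, SRSF5, SRSF6 and SRSF7. With limma-trend it was 1 for SRSF3 against SRSF7, 2 for SRSF6 and 0 for SRSF1, SRSF3, SRSF4, SRSF5 and SRSF7; Rbm8a exon 6 (SRSF3 against SRSF7) turned to 0.2771 and Rbm8a exon 4 (SRSF7) to -0.4408. Libraries of at least 50000 tags called 3 for NXF1 and 1 for SRSF1, and the later run year 1 for SRSF3 against SRSF7, 1 for SRSF1, 3 for SRSF3 and 1 for SRSF7. The causes were not tested.

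The replicate numbers did not pair libraries (91 same-numbered pairs, median correlation -0.0054 over genes and 0.0155 over sites). With the replicate block 4 member genes were called for NXF1, and member sites numbered 3 for SRSF3 against SRSF7, 1 for SRSF1 and 0 for SRSF7.

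Leaving out 1 library gave 0 to 2 member genes for NXF1 (2 without SRSF2 replicate 1 or SRSF4 replicate 3, 0 without any NXF1 library), 0 to 1 for SRSF3 against SRSF7 (1 without SRSF7 replicate 2), 0 to 1 for SRSF3, 0 to 2 for SRSF5 and 0 to 3 for SRSF6. Member sites ranged 3 to 6 for SRSF3 against SRSF7, 1 to 4 for SRSF1, 3 to 7 for SRSF3, 0 to 1 for SRSF4, 0 to 4 for SRSF5, 2 to 5 for SRSF6 and 0 to 2 for SRSF7. The SRSF4 3′ UTR difference ranged 21.48 to 36.62 points. It was 29.12 with at least 50 member tags (exact permutation test, adjusted p = 0.154), 28.64 in the later run year (0.0909) and 5.515 without Rbm8a (0.307). Other scalings moved the median change of all genes by -0.744 to 1.25, and of all sites by -0.663 to 1.36. Library totals limit all of these: of the 31 libraries, 25 listed at least 50000 tags.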
